A study of Mus musculus with 36 samples.

Results

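Dendritic cells (DCs) that carry thrombomodulin (TM) on their surface were compared with DCs sorted as lacking it, in cultures of mouse bone marrow that never received soluble TM (sTM). The arrays were chosen by their titles, and 4 arrays of TM+ untreated DCs and 4 of TM- untreated DCs were taken from the 36 arrays of the series. Each fraction has 2 arrays in experiment 3 and 2 in experiment 4, and TM+ 4-2 denotes array 2 of TM+ DCs in experiment 4. Bone marrow of Balb/c mice aged 10 to 12 weeks was cultured in 100 ng/ml of GM-CSF, the colony-stimulating factor of granulocytes and macrophages, and on day 6 the cells were separated with a rat antibody to TM and magnetic microbeads. A purity above 93% is stated for the sorted populations. Both fractions share strain, growth factor and day of harvest, and the labels name no genetic change and no other agent. The question was how the TM+ DCs that arise without sTM differ in gene expression from the TM- DCs beside them. Arrays of a group are labelled as biological replicates. Separate cultures or mice are not named, so the p-values measure the spread between these arrays, which may be technical.

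TM is a surface receptor that binds thrombin and turns it from clotting to the activation of protein C, which limits both coagulation and inflammation. Marrow cultures in GM-CSF hold dividing myeloid precursors beside DCs, and DCs that mature stop dividing, raise costimulatory molecules and the chemokine receptor Ccr7, and secrete cytokines. Many of the cytokine and chemokine genes are switched on by NF-kB, the antiviral genes by interferon, and genes of mitosis are held down in resting cells through short promoter elements.

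The values are log2 intensities from RMA, and a difference is TM+ minus TM- on this scale, so that 1 is a change of 2-fold. Arrays of the same fraction and experiment correlated at 0.995 to 0.998 (Pearson's r across the 19938 genes tested, which are not independent), and the leading principal component, with 63.5% of the variance, separated the TM+ from the TM- arrays. The component after it separated the experiments. Thbd, which encodes TM, had log2 intensities of 6.66 and 6.92 in TM+ DCs and 5.83 and 6.06 in TM- DCs of experiment 3, and of 5.84 and 5.76 against 5.65 and 5.97 in experiment 4. The TM+ arrays of experiment 3 stood above the others, and the fractions of experiment 4 overlapped. Its difference was 0.42 (SE 0.18, adjusted p = 0.129), or 0.84 in experiment 3 and -0.01 in experiment 4, and the experiments differed (adjusted p = 0.0054). Without TM- 4-2 it was 0.57 with an adjusted p of 0.0484. The level of Thbd mRNA therefore gave no check of the sort in experiment 4, and the cells had been sorted on the protein. General markers of these cells differed little, with 0.20 for Itgax (CD11c, adjusted p = 0.229) and 0.07 for Ptprc (CD45, adjusted p = 0.554).

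Of 19938 genes tested, 3034 were higher and 2030 lower in TM+ DCs (limma with experiment as a factor, Benjamini-Hochberg adjusted p below 0.05), which is 15.2% and 10.2%. All 5064 had the same sign in both experiments. The fit largely fixes this outcome, since disagreement between the experiments counts as spread in it. It is therefore no evidence of replication. The arrays of the fractions did not overlap in either experiment, with TM+ above, for 3409 genes, or 17.1%, and with TM+ below for 2859, or 14.3%. A change of at least 2-fold was reached by 799 rises and 486 falls, and of at least 4-fold by 157 rises and 106 falls. Counts of calls in the lists below are to be read against the 15.2% and 10.2% of all genes, which some lists do not exceed. The split between rises and falls depends on how the arrays are scaled. Of all calls, 59.9% were rises on the scale as deposited, 42.2% when each array was centred on its 75th percentile, where the median difference of all genes moved from -0.06 to -0.20, and 52.0% after quantile normalization. Leaving out 1 array moved these counts by over 1.5 times in 3 cases, with 1976 rises without TM- 4-1, 1957 rises without TM+ 4-2 and 3488 falls without TM- 3-1. In sorted populations such as these, fewer cells of a type and less RNA per cell cannot be told apart.

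Ccr2 rose the most. It is the receptor by which monocytes leave the marrow and follow Ccl2. Its log2 intensities were 9.65, 9.60, 10.48 and 10.28 in TM+ DCs and 6.05, 5.65, 5.61 and 6.36 in TM- DCs (arrays 3-1, 3-2, 4-1 and 4-2, the order kept throughout). Every TM+ array was far above every TM- array, and the difference was 4.09 (SE 0.19, 17.0-fold, adjusted p = 2.83e-06). Among the 12 largest rises, 8 genes belong to the lists of cell division and mitosis below: Ccna2, Ccnb2, Anln, Kif11, Cenpe, Plk1, Prc1 and Top2a. The others were Sh2d1b1, a signalling adaptor of immune cells, with 3.69, Hal, which degrades histidine, with 3.49, and Prr11 with 3.23. The largest fall was that of Hamp, the hormone hepcidin that blocks iron export. It read 5.39, 5.37, 6.87 and 8.88 in TM+ DCs and 11.70, 11.76, 12.44 and 12.45 in TM- DCs. All TM- arrays were high, and of the TM+ arrays 4-2 lay nearest to them, so that the difference of -5.46 (SE 0.46, 44.1-fold lower, adjusted p = 5.7e-05) became -6.04 without TM+ 4-2. The falls after it were those of Vnn3 (-4.35), a pantetheinase, Saa3 (-4.31), an acute-phase protein, Il1f6 (-4.24), Susd2 (-4.19) and Itgb8 (-4.05). Il6 (-3.82), Lox (-3.79), which crosslinks collagen, Ptgs2 (-3.75), Ptges (-3.70), Aldh1a2 (-3.57), which makes retinoic acid, and U90926 (-3.49) completed the 12.

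**Figure D1:**
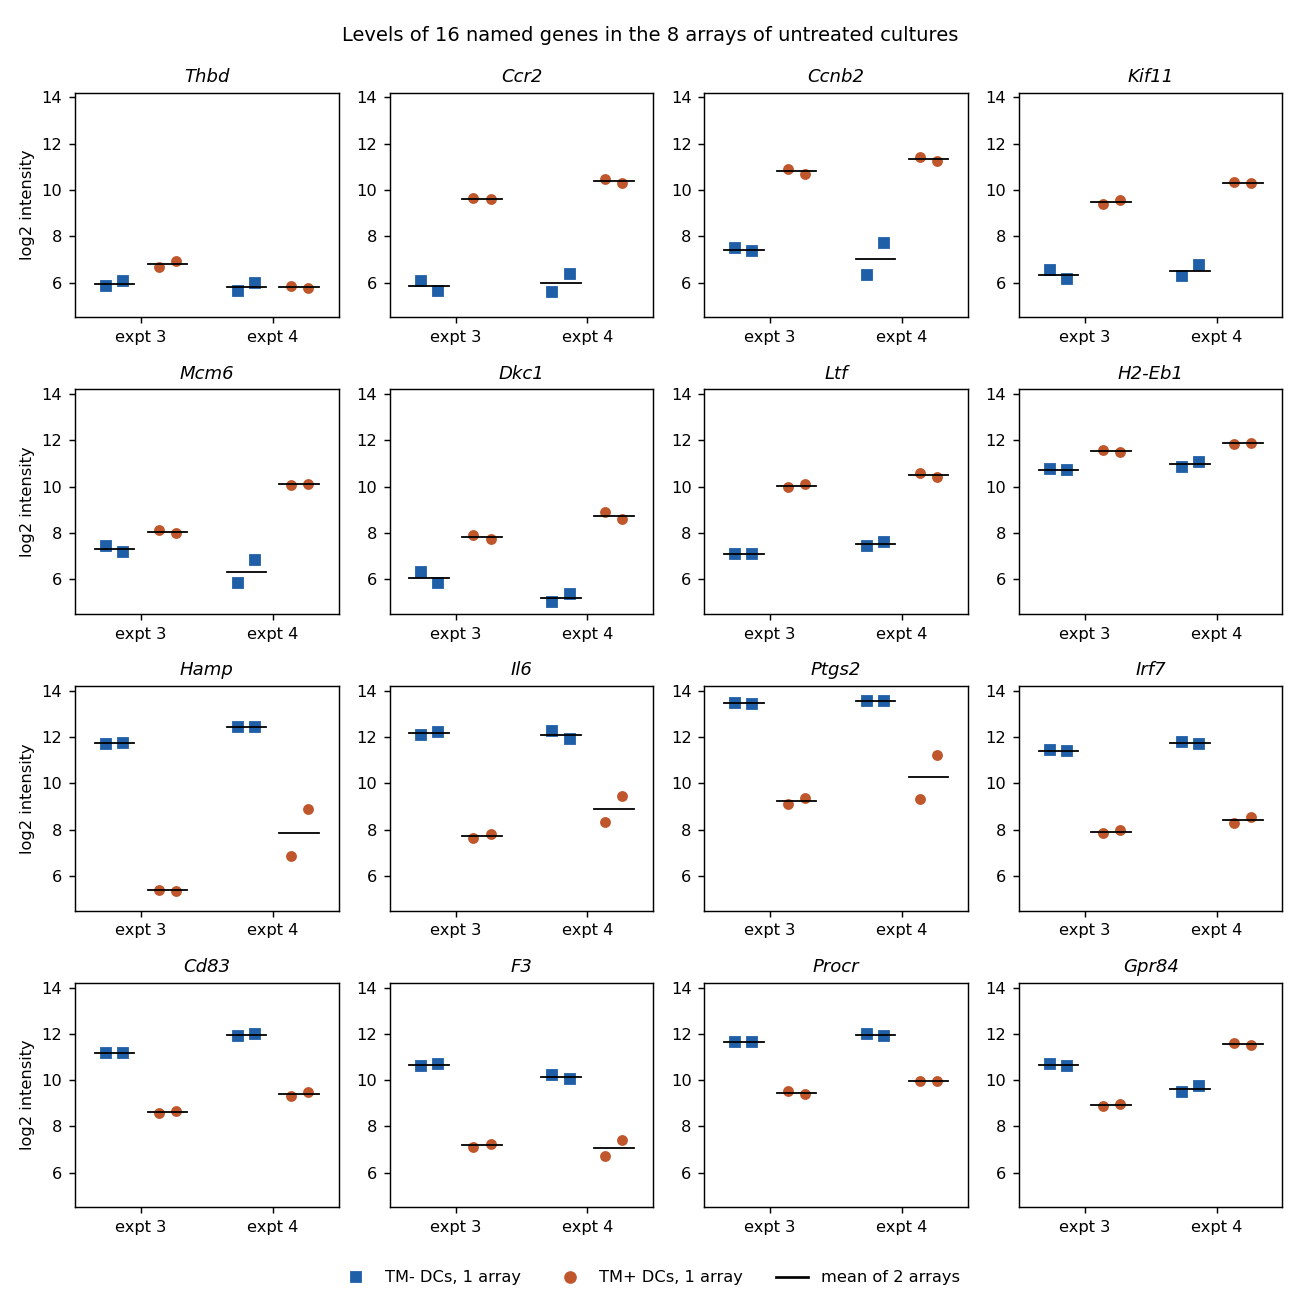
Log2 intensity (vertical axis) of 16 named genes in each of the 8 arrays, with squares for TM- DCs, circles for TM+ DCs and a bar for the mean of 2 arrays, by experiment. The fractions are separated in both experiments for Ccr2, Hamp and Irf7, overlap in experiment 4 for Thbd, and change places between the experiments for Gpr84.

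Arrays of the same fraction differed most in experiment 4 for these genes. TM+ 4-2 lay above TM+ 4-1 for 12 of the 12 largest falls, by a median of 0.75 (0.25 to 2.01), against 43.0% of all genes. TM- 4-2 lay above TM- 4-1 for 12 of the 12 largest rises, by a median of 0.70 (0.36 to 1.39), against 54.7% of all genes. In both cases the array 4-2 was the one nearer to the other fraction.

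The promoters of the 3 mitosis genes with the largest rises that have an entry are printed because their genes rose together and because promoters of mitotic genes are known for 2 short elements, the cell-cycle gene homology region (CHR, searched as TTTGAA) and CCAAT. Each run covers 250 bases before to 50 after the start of the gene, 300 in all, from the RefSeq table on GRCm38.p6, with capitals for matches on either strand. Ccnb2 lies at chr9:70421505-70421804 and Anln at chr9:22389157-22389456, both on the minus strand, and Kif11 lies at chr19:37376132-37376431 on the plus strand.
Ccnb2: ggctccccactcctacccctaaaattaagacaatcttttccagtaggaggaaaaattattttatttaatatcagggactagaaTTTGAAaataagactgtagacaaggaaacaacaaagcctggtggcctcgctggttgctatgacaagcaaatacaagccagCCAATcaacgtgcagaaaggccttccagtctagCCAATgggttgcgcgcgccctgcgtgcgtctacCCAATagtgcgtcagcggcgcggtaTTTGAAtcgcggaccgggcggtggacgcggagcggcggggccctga
Anln: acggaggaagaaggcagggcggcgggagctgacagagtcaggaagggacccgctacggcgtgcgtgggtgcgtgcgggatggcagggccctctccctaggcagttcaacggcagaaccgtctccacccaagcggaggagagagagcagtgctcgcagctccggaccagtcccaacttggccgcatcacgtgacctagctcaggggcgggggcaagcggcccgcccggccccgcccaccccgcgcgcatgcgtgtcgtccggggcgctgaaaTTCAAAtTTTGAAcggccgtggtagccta
Kif11: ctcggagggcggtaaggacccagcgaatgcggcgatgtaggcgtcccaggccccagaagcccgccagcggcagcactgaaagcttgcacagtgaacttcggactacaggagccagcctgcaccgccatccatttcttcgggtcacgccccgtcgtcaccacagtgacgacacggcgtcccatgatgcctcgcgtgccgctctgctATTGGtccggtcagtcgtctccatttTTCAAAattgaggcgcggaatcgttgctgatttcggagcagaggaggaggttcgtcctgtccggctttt
The Ccnb2 run held 2 CHR and 3 CCAAT matches, the Anln run 2 CHR and no CCAAT matches, and the Kif11 run 1 of each. Over the 121 promoters of 110 genes in the 4 mitosis lists, 55.4% held TTTGAA and 66.9% CCAAT, and 43.0% held both. Over all 32851 promoters of that length in the table the shares were 17.9%, 37.4% and 6.95%. These are matches of letters, not sites shown to be bound.

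Genes of mitosis were higher in TM+ DCs. Of 131 measured members of 4 lists, 117 rose and 1 fell, with a median difference of 1.73, against -0.06 for all genes. Among kinesins, spindle and cytokinesis genes 33 of 34 rose (median 2.34). Kif11, the motor that pushes spindle poles apart, read 9.39, 9.58, 10.34 and 10.29 in TM+ DCs and 6.54, 6.14, 6.27 and 6.75 in TM- DCs. No TM- array came near the TM+ arrays, and its difference was 3.47 (SE 0.17, adjusted p = 3.17e-06). Anln, which builds the contractile ring, rose by 3.64, Prc1, which bundles the midzone, by 3.25, and Kif20a by 3.15.

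Of the kinetochore and spindle checkpoint genes 39 of 44 rose and none fell (median 1.60), led by the kinesin Cenpe (3.37), Nuf2 (3.19), Knl1 (2.94) and Cenpn (2.64). The genes that control entry into and exit from mitosis gave 27 rises and 1 fall among 31 (median 1.44), the fall being Anapc4 (-0.33), named after its value was seen. Leaving out any array other than TM- 4-2 gave no fall in this list. Ccnb2, a cyclin that drives mitotic entry, read 10.92, 10.69, 11.43 and 11.26 in TM+ DCs and 7.49, 7.34, 6.33 and 7.72 in TM- DCs. The TM- array 4-1 was the lowest of the 8, and the difference was 3.86 (SE 0.30, adjusted p = 3.37e-05). The kinases Plk1 (3.33), Mastl (2.62) and Cdk1 (2.39) and the Cdk subunit Cks1b (2.71) also rose. In condensation, cohesion and topology 19 of 23 rose and none fell (median 1.51), with Top2a (3.25), Smc2 (2.89), the chromokinesin Kif4 (2.83) and Ncapg (2.69).

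The mean log2 intensity of the 131 members was 8.27, 8.32, 9.23 and 9.07 in TM+ DCs and 7.05, 6.96, 6.94 and 7.10 in TM- DCs. The TM- arrays were alike in both experiments, and the TM+ arrays of experiment 4 were above those of experiment 3. The median difference was 1.33 in experiment 3 and 2.38 in experiment 4. The experiments differed for 105 of the 131 members, against 30.4% of all genes. Of the 105, 102 had the same sign and the larger value in experiment 4. Without each array in turn, 107 to 122 members rose.

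Upstream of mitosis the same direction held for DNA replication, with 99 rises and 1 fall among 114 members of 4 lists (median 0.65 in experiment 3 and 1.67 in experiment 4). Without each array in turn, 83 to 105 rose. Of the origin licensing and fork genes 42 of 45 rose (median 1.07), among them Pole (2.68), the leading-strand polymerase, Mcm5 (2.11) and the primase subunit Prim1 (2.10). Mcm6, part of the replicative helicase, read 8.12, 7.99, 10.07 and 10.14 in TM+ DCs and 7.43, 7.18, 5.84 and 6.83 in TM- DCs. The gap was small in experiment 3 (0.75) and wide in experiment 4 (3.77), and the call of the joint difference of 2.26 (adjusted p = 0.0165) was lost without TM+ 4-1, TM+ 4-2 or TM- 4-2, with differences of 1.97, 1.94 and 2.15. Nucleotide supply gave 17 rises among 19 (median 1.08), led by the ribonucleotide reductase subunits Rrm2 (2.77) and Rrm1 (2.04) and by Shmt2 (1.77), which feeds folate carbon. DNA repair and fork protection gave 24 rises among 29 (median 1.19), with Neil3 (2.97), Dna2 (2.09), Fancd2 (2.01) and Brip1 (2.00). Of the replication-dependent histones 16 of 21 rose and 1 fell (median 1.17), with 2.86 for H2ac4, 2.28 for H2ac15, 2.27 for H2bc3 and 2.02 for the linker histone H1f5. The fall was H2bc4 (-0.87), named after its value was seen. Histone genes are near-identical copies whose probes may be shared, so values for single copies are uncertain.

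The genes that move cells from G1 to S gave 16 rises and 1 fall among 21 (median 0.97). Ccna2, the cyclin of S phase and early mitosis, read 10.56, 10.62, 11.20 and 11.18 in TM+ DCs and 7.03, 6.98, 6.12 and 7.51 in TM- DCs. The fractions were far apart in both experiments (difference 3.98, SE 0.28, adjusted p = 2.07e-05). Myc, a transcription factor of growth, rose by 2.42, the early cyclin Ccnd1 by 2.17, the Cdc7 partner Dbf4 by 1.80 and Cdk2 by 0.99, whereas Cdk6, named after its value was seen, fell by 0.53. Without TM- 3-1 this list held 2 falls. Inhibitors of Cdks and the retinoblastoma family were divided, with 5 rises and 5 falls among 15 (median -0.09). Rbl1 (1.64) and Cdkn2c (1.48) rose, and E2f5 (-1.19) and Ccng2 (-0.99), a cyclin of arrested cells, fell. Rb1 had a difference of -0.26 (adjusted p = 0.188).

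Markers of other cells moved beside these genes. Neutrophil and granule markers gave 14 rises and 4 falls among 23 (median 0.67), and their mean log2 intensity was 8.86 to 9.41 in TM+ arrays and 8.15 to 8.65 in TM- arrays. Ltf, a protein of secondary granules, read 9.98, 10.11, 10.61 and 10.42 in TM+ DCs and 7.09, 7.07, 7.42 and 7.62 in TM- DCs. The fractions were apart by nearly the same amount in both experiments (difference 2.98, SE 0.08, adjusted p = 2.47e-07). Cxcr2 (3.23) and S100a9 (2.72) rose with it, whereas the gelatinase Mmp9 fell by 3.09. Monocyte and macrophage markers gave 10 rises and 4 falls among 22 (median 0.30, mean level 9.35 to 9.60 against 8.72 to 9.03), with Ccr2, Ifitm6 (2.69) and the complement gene C1qb (2.52) higher and the proteoglycan Vcan (-3.08) lower.

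Stem and progenitor markers gave 3 rises and 4 falls among 14 (median -0.20). Cd34 (1.34) and the transcription factor Myb (1.31) rose, and Procr (-2.09), Slamf1 (-1.58) and Kit (-0.64) fell. Of the eosinophil, basophil and mast cell markers 5 rose and 1 fell among 19 (median 0.08, mean level 6.63 to 6.77 against 6.35 to 6.60). The eosinophil granule genes Epx (2.74) and Prg2 (1.74) and the receptor Ccr3 (0.87) rose, and Hdc, which makes histamine, fell by 3.21. Conventional DC markers gave 9 rises and 5 falls among 20 (median 0.14, mean level 9.03 to 9.19 against 8.61 to 8.79), with Itgae (CD103, 2.98), Btla (2.34) and the lysosomal amidase Naaa (1.82) higher and Ccr7 (-1.75) lower.

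B cell and plasmacytoid DC markers gave no rise and 2 falls among 16 (median -0.09), Bst2 (-1.40) and Tcf4 (-0.76), and 1 member was higher at an unadjusted p below 0.05. Without TM+ 4-1 there was 1 rise. In the main fit falls were 12.5% of the list, against 10.2% of all genes. None of 18 T and NK cell markers passed limma's test (median -0.05), with 2 higher at an unadjusted p below 0.05 and a mean level of 5.57 to 6.06 in TM+ and 5.68 to 5.84 in TM- arrays. Without TM- 3-1, 2 of them fell, and without TM+ 4-1 or TM- 4-1, 1 rose. Erythroid and platelet markers gave 1 rise and 4 falls among 13 (median -0.11). Ppbp fell by 1.11, Pf4 by 0.69 and Car2 by 0.97, the last not called without TM+ 3-2 (-0.87) or TM- 3-2 (-0.86), and Itga2b rose by 0.61 but was not called without TM+ 4-2 (0.53) or TM- 4-2 (0.56). Endothelial and stromal markers gave no rise and 5 falls among 20 (median -0.16, no member higher at an unadjusted p below 0.05), with the matrix proteoglycan Dcn (-2.18), Kdr (-0.97) and Esam (-0.90). The part of these other cells in the differences of cell division or inflammation was not tested.

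**Figure D2:**
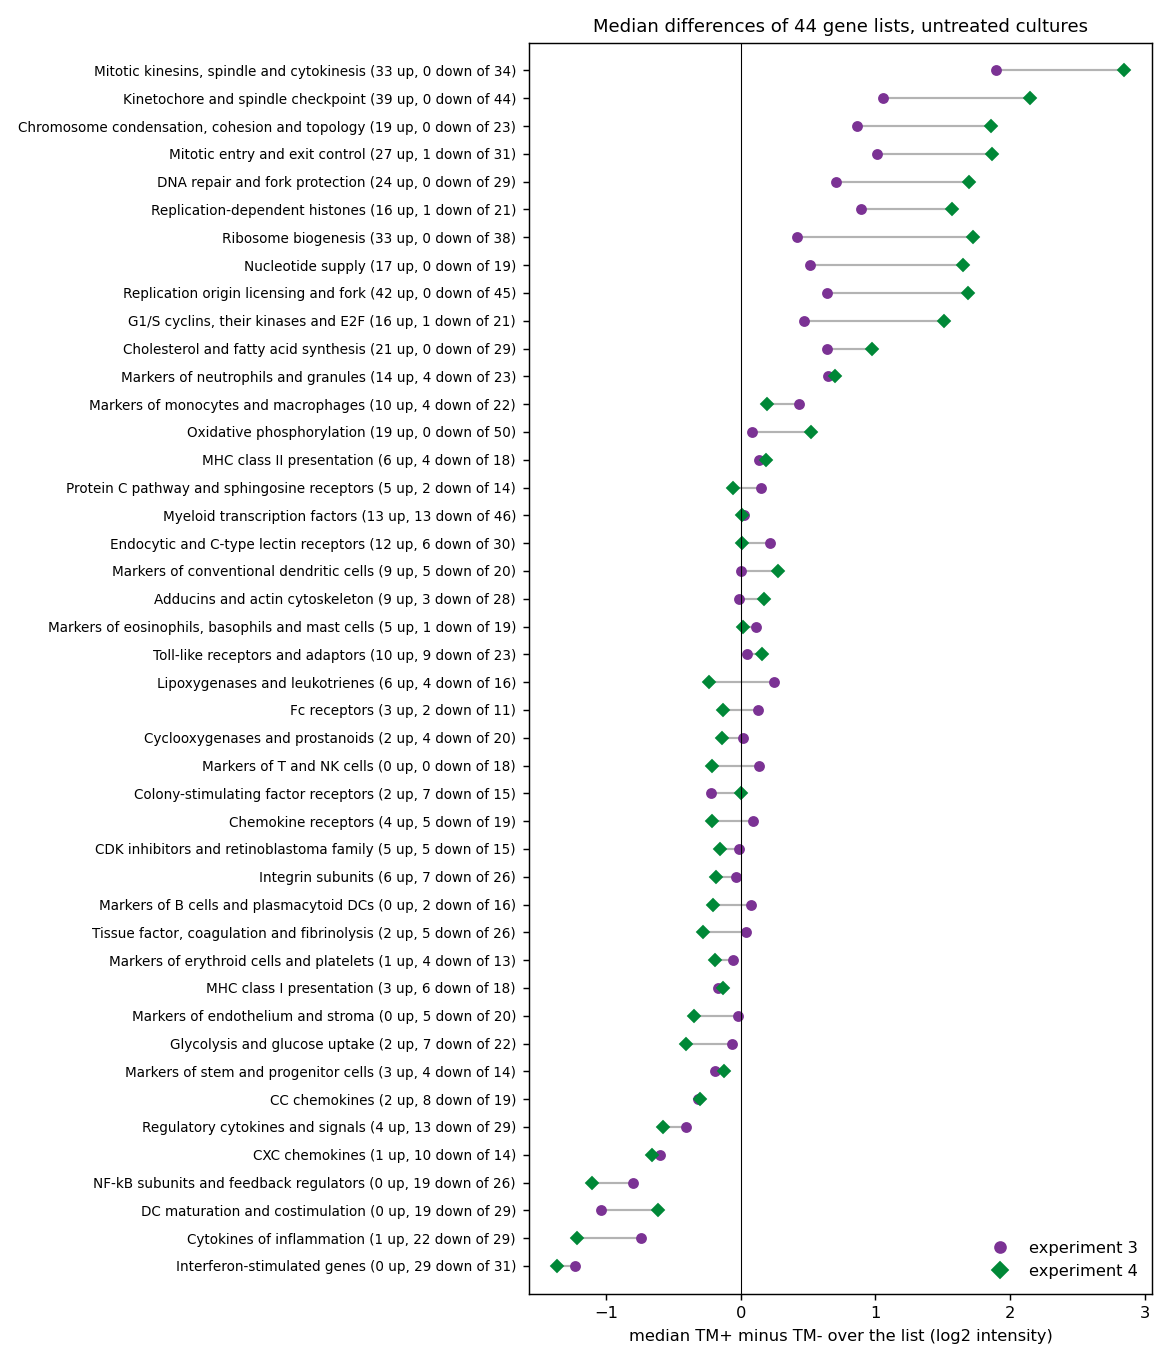
Median difference between TM+ and TM- DCs (horizontal axis, log2 intensity) over each of 44 gene lists, with circles for experiment 3, diamonds for experiment 4 and the counts of rises and falls beside each name. Lists of mitosis lie at the top, with a median of 2.34 for kinesins, spindle and cytokinesis, and the interferon-stimulated genes at the bottom with -1.43.

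Genes that build ribosomes were higher in TM+ DCs, with 33 rises among 38 and no fall (median 1.13). Nop58, part of the complexes that methylate ribosomal RNA, read 7.83, 7.86, 9.44 and 9.26 in TM+ DCs and 6.98, 6.42, 5.81 and 6.22 in TM- DCs. The fractions did not overlap, and the gap was wider in experiment 4 (difference 2.24, SE 0.40, adjusted p = 0.00366). Dkc1 (2.66), which modifies the same RNA, Tsr1 (1.78) and Nop56 (1.53) rose too. The median of the list was 0.42 in experiment 3 and 1.73 in experiment 4. The experiments differed for 36 of the 38 genes, against 30.4% of all genes. Without each array in turn 20 to 36 rose, the 20 without TM+ 4-2 or TM- 4-2.

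Subunits of oxidative phosphorylation gave 19 rises and no fall among 50 (median 0.30), led by the complex I genes Ndufb5 (0.75), Ndufs8 (0.72), Ndufs1 (0.71) and Ndufv1 (0.65). This count was 10 without TM- 4-1 or TM+ 4-2, 11 without TM- 3-2, TM+ 4-1 or TM- 4-2, and 27 without TM- 3-1. Centring on the 75th percentile gave 10 rises and 2 falls. The median of the list was 0.08 in experiment 3 and 0.52 in experiment 4. Experiment 3 alone called 5 rises in it and experiment 4 alone 39, against 1986 and 4939 over all 19938 genes. Glycolysis and glucose uptake gave 2 rises and 7 falls among 22 (median -0.19), with 3 falls when any single array of experiment 4 was left out and 1 rise when any array other than TM- 3-1 or TM+ 3-2 was. Pfkfb3, which makes the activator of phosphofructokinase, fell by 1.51 and the glucose transporter Slc2a1 by 0.65. The neuronal enolase Eno2 (-2.06) and the transporter Slc2a3 (-1.22) also passed the test, but neither did without any single array of experiment 4.

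Genes of cholesterol and fatty acid synthesis were higher, with 21 rises and no fall among 29 (median 0.79). Fasn, the fatty acid synthase, read 8.74, 8.76, 10.49 and 10.52 in TM+ DCs and 7.80, 7.76, 7.14 and 7.83 in TM- DCs. The TM+ arrays of experiment 4 were highest, and the difference was 1.99 (SE 0.37, adjusted p = 0.00487). The desaturase Fads2 rose by 1.97, the sterol demethylase Cyp51 by 1.66, Fdps by 1.39, Fdft1 by 0.63 and Srebf2, the transcription factor of the pathway, by 0.63. From 18 to 22 members rose without each array in turn.

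Inflammatory cytokines were lower in TM+ DCs. Of 29 members, 22 fell and 1 rose (median -1.05), the rise being Ltb (1.31), a lymphotoxin subunit named after its value was seen. Il1f6, an interleukin of the IL-1 family, read 5.89, 5.71, 6.03 and 6.46 in TM+ DCs and 9.86, 10.01, 10.55 and 10.63 in TM- DCs. The gap was alike in both experiments (difference -4.24, SE 0.11, 18.9-fold lower, adjusted p = 2.1e-07). Il6 read 7.66, 7.81, 8.34 and 9.44 in TM+ DCs and 12.11, 12.22, 12.26 and 11.91 in TM- DCs. The TM- arrays were within a narrow range, and TM+ 4-2 was the highest of its fraction (difference -3.82, SE 0.30, adjusted p = 3.54e-05, -4.16 without TM+ 4-2). Tnfsf15 fell by 3.43, and Il12a and Il12b, whose products form IL-12, fell by 3.27 and 3.16. Tnf had -0.62 (adjusted p = 0.0682), or -1.21 in experiment 3 and -0.03 in experiment 4, and Il10 had -0.60 (adjusted p = 0.0532). From 18 to 22 members fell without each array in turn. The median of the list was -0.75 in experiment 3 and -1.22 in experiment 4. The experiments differed for 18 of the 29, against 30.4% of all genes, and 2 of these 18 had opposite signs.

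NF-kB subunits and feedback regulators gave 19 falls and no rise among 26 (median -0.77), and 18 to 20 fell without each array in turn. Traf1 fell by 2.54, the deubiquitinase Tnfaip3 by 1.88, Cflar, which blocks caspase 8, by 1.81 and the inhibitor Nfkbia by 1.62. At an unadjusted p below 0.05, 22 members were lower and none higher.

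CXC chemokines, most of which attract neutrophils or lymphocytes, gave 10 falls and 1 rise among 14 (median -0.61). Cxcl1 read 7.97, 7.97, 8.06 and 9.06 in TM+ DCs and 10.97, 11.14, 12.07 and 12.05 in TM- DCs. TM+ 4-2 again lay above the other TM+ arrays, and the fractions did not overlap (difference -3.29, SE 0.20, adjusted p = 9.06e-06). Cxcl5 (-2.97), Cxcl3 (-1.78) and Cxcl2 (-1.75) fell as well, and the rise was Cxcl14 (0.42). CC chemokines gave 8 falls and 2 rises among 19 (median -0.35), with Ccl5 (-2.94, or -3.34 without TM+ 4-2), Ccl24 (-1.80), Ccl4 (-1.66) and the T cell attractant Ccl22 (-1.54) lower, and Ccl6 (0.41) and Ccl12 (0.37) higher. Cxcl14, Ccl6 and Ccl12 were named after their values were seen, and under centring on the 75th percentile no CXC or CC chemokine was called higher. Without TM+ 3-2, TM+ 4-1 or TM- 4-1, 1 CC chemokine rose. Of 19 chemokine receptors 4 rose and 5 fell (median -0.05), with Ccr2 and Cxcr2 higher and Ccr4 (-3.06), Ccrl2 (-2.28) and Ccr7 lower.

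The promoters of Il6, Tnfsf15 and Cxcl1 are printed as the 3 largest falls with an entry among the NF-kB, cytokine and CXC chemokine genes. Il1f6 has none. Capitals mark matches to the NF-kB consensus on either strand. Il6 lies at chr5:30012864-30013163 and Cxcl1 at chr5:90890995-90891294, both on the plus strand, and Tnfsf15 lies at chr4:63745010-63745309 on the minus strand, all on GRCm38.p6.
Il6: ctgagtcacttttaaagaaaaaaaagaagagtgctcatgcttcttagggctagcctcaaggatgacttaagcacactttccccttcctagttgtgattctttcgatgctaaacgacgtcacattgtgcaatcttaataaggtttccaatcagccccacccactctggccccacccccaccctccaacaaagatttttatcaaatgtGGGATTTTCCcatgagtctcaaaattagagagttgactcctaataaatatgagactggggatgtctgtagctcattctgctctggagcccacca
Tnfsf15: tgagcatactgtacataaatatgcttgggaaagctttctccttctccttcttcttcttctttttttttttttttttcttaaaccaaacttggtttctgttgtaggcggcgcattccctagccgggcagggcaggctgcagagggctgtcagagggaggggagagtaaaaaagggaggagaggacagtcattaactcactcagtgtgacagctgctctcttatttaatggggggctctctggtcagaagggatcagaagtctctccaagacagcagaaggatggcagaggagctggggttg
Cxcl1: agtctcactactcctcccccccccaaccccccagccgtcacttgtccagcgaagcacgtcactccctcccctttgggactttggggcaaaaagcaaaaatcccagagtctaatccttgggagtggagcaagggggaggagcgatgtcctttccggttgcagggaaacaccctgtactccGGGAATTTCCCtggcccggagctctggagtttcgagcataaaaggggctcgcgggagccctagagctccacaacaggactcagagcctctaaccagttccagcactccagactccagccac
The match in Il6 began 44 bases before the start, Cxcl1 held 2 overlapping matches that began 71 and 70 bases before it, and Tnfsf15 held none. Over 69 promoters of 55 genes in these lists 33.3% held the consensus, against 8.46% of all promoters in the table and 9.92% of the mitosis promoters. TTTGAA was found in 4.35% and CCAAT in 21.7% of the 69. A match of letters shows neither binding nor use.

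Interferon-stimulated genes were lower in TM+ DCs, with 29 falls and no rise among 31 (median -1.43). Irf7, the factor that amplifies type I interferon, read 7.85, 7.99, 8.29 and 8.54 in TM+ DCs and 11.44, 11.39, 11.77 and 11.70 in TM- DCs. Both fractions were slightly higher in experiment 4, with about the same gap (difference -3.40, SE 0.09, 10.6-fold lower, adjusted p = 2.1e-07). The antiviral Rsad2 read 6.66, 6.66, 7.35 and 7.70 in TM+ DCs and 10.09, 9.92, 11.19 and 11.08 in TM- DCs. It too was separated in each experiment (difference -3.48, SE 0.11, adjusted p = 3.29e-07). Gbp5, a guanylate-binding protein, fell by 2.81 and Ifit1 by 2.59, the latter one of several similar Ifit genes. The 2 members that did not pass were Mx1, with 0.82 (adjusted p = 0.204), and Iigp1, with 0.07 (adjusted p = 0.652), both named after their values were seen. In experiment 3, 1 of the 31 genes was above 0, and in experiment 4 also 1. Experiment 4 alone called 1 rise in the list and experiment 3 alone none, against 4939 and 1986 rises over all 19938 genes.

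The mean log2 intensity of the 31 genes was 7.70, 7.74, 8.41 and 8.34 in TM+ DCs and 9.26, 9.15, 9.92 and 9.87 in TM- DCs. Both fractions were higher in experiment 4 than in experiment 3. The median difference was -1.23 in experiment 3 and -1.37 in experiment 4, and the experiments differed for 9 of the 31 genes, against 30.4% of all genes. Without each array in turn, 28 to 29 genes fell.

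Genes of DC maturation and costimulation gave 19 falls and no rise among 29 (median -0.85), with 1 member higher at an unadjusted p below 0.05. Cd83, a surface marker of mature DCs, read 8.57, 8.67, 9.33 and 9.48 in TM+ DCs and 11.16, 11.19, 11.89 and 11.99 in TM- DCs. The gap was nearly equal in both experiments (difference -2.55, SE 0.08, adjusted p = 3.06e-07). Cd200 fell by 2.47, Stat4, which signals for IL-12, by 2.33, Tnfsf9 (4-1BB ligand) by 1.94 and Cd80, a ligand of CD28, by 0.79. Ccr7, which leads DCs to lymph nodes, lay between 10.89 and 11.35 in TM+ DCs and between 12.56 and 13.10 in TM- DCs. All TM- arrays were higher (difference -1.75, SE 0.15, adjusted p = 6.37e-05). Cd86 differed by -0.08 (adjusted p = 0.717), with -0.44 in experiment 3 and 0.29 in experiment 4. From 16 to 19 members fell without each array in turn, and 1 rose without TM- 3-1. The median of the list was -1.04 in experiment 3 and -0.61 in experiment 4. The experiments differed for 20 of the 29 genes, against 30.4% of all genes, and 6 of these had opposite signs. Experiment 3 alone called 23 falls and no rise, against 1500 and 1986 over all 19938 genes. Experiment 4 alone called 16 falls and 4 rises, against 6557 and 4939 over all genes.

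MHC class II presentation was divided, with 6 rises and 4 falls among 18 (median 0.18). H2-Eb1, a class II beta chain, read 11.59, 11.50, 11.85 and 11.89 in TM+ DCs and 10.78, 10.70, 10.85 and 11.07 in TM- DCs. It was higher in each TM+ array (difference 0.86, SE 0.08, adjusted p = 0.000103). H2-Ab1 (0.82), H2-Aa (0.68), the peptide editor H2-DMa (1.60) and the transactivator Ciita (1.31) rose, H2-Eb2 had 0.34 (adjusted p = 0.0552), and the protease Ctsl fell by 0.84. MHC class I presentation gave 3 rises and 6 falls among 18 (median -0.16). Rises were 16.7% of this list, near the 15.2% of all genes, and falls 33.3%, against 10.2%. H2-Q4 (-1.47) and H2-M3 (-0.89) fell, though H2-Q genes are close copies whose probes may be shared. Psme3 (1.03) and the trimming peptidase Erap1 (0.84) rose. Without any single array of experiment 4 neither was called, and no class I gene was called higher.

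Receptors for uptake were divided too. Endocytic and C-type lectin receptors gave 12 rises and 6 falls among 30 (median 0.15). Mrc1, the mannose receptor, read 8.94, 9.03, 8.04 and 7.70 in TM+ DCs and 5.66, 5.90, 6.52 and 6.23 in TM- DCs. The gap was wider in experiment 3 (3.21) than in experiment 4 (1.49), with a joint difference of 2.35 (SE 0.31, adjusted p = 0.000765). Mgl2 rose by 1.60, while Clec4e (-2.51), a receptor of mycobacterial lipid, Olr1 (-1.54) and Ly75 (DEC-205, -1.10) fell. Fc receptors gave 3 rises and 2 falls among 11 (median -0.01), with Fcrls (2.32), Fcrla (1.04) and the high-affinity receptor Fcgr1 (0.82) higher and the inhibitory Fcgr2b (-0.69) lower. Toll-like receptors and adaptors gave 10 rises and 9 falls among 23 (median 0.00). Tlr8 (2.28) rose, and Tlr1 (-1.77), the brake Irak3 (-1.77) and the Tlr4 partner Ly96 (-1.12) fell.

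Of 29 signals that restrain immune responses 13 fell and 4 rose, and the other 12 did not pass (median -0.43). The experiments differed for 18 of the 29, against 30.4% of all genes, and 6 of these 18 had opposite signs. Experiment 3 alone called 14 falls and 4 rises, against 1500 and 1986 over all 19938 genes. Experiment 4 alone called 17 falls and 7 rises, against 6557 and 4939 over all genes. Itgb8, whose integrin frees active TGF-beta, read 5.82, 5.72, 5.77 and 6.10 in TM+ DCs and 9.73, 9.67, 10.14 and 10.07 in TM- DCs. The fractions were separated by about the same amount in both experiments (difference -4.05, SE 0.10, adjusted p = 2.1e-07). Nos2, which makes nitric oxide, fell by 3.01 with wide spread among the TM+ arrays of experiment 4 (7.99 and 9.65), and was -2.50 without TM+ 4-1. The ligand Tgfb3 rose by 2.22.

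In the protein C pathway and among sphingosine receptors 5 genes rose and 2 fell of 14 (median 0.17). Procr, the endothelial protein C receptor that presents protein C to TM, read 9.54, 9.38, 9.95 and 9.98 in TM+ DCs and 11.66, 11.64, 11.98 and 11.91 in TM- DCs. All TM- arrays were higher (difference -2.09, SE 0.08, 4.25-fold lower, adjusted p = 1.07e-06). S1pr3 fell by 2.12, and Pros1, the cofactor of activated protein C, rose by 1.23 and F2rl2 (Par3) by 0.78. S1pr1 had 0.37 (adjusted p = 0.0494) and lost the call without any array other than TM+ 4-2, where it was 0.49. Centring on the 75th percentile gave 2 rises and 2 falls in this list, and 3 members rose without TM+ 3-1, TM+ 3-2, TM+ 4-1 or TM- 4-1.

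Coagulation and fibrinolysis gave 2 rises and 5 falls among 26 (median -0.11), with 8 falls without TM- 3-1, 3 falls when any single array of experiment 4 was left out, and 1 rise without TM- 3-2, TM- 4-1 or TM- 4-2. F3, tissue factor, which starts coagulation, read 7.13, 7.23, 6.74 and 7.41 in TM+ DCs and 10.61, 10.70, 10.23 and 10.04 in TM- DCs. It was far lower in every TM+ array (difference -3.27, SE 0.15, 9.63-fold lower, adjusted p = 2.8e-06). The protease inhibitor Serpinb2 fell by 1.75, and F5, the cofactor of factor X, rose by 1.24. F10 had -0.52 (adjusted p = 0.0473) and was not called without any single array of experiment 4. Rises were 7.69% of the list, against 15.2% of all genes, and falls 19.2%, against 10.2%. Serpinb8, an inhibitor outside this list, fell by 1.33.

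Arachidonic acid is turned into prostanoids by cyclooxygenases and into other mediators, leukotrienes and lipoxins among them, by lipoxygenases. Among cyclooxygenases, prostanoid synthases and receptors 2 rose and 4 fell of 20 (median -0.04). Ptgs2 (COX-2) read 9.12, 9.38, 9.32 and 11.21 in TM+ DCs and 13.49, 13.44, 13.57 and 13.55 in TM- DCs. TM+ 4-2 stood apart from the other TM+ arrays (difference -3.75, SE 0.37, adjusted p = 0.00013, -4.22 without TM+ 4-2). Ptges, which makes prostaglandin E2 from its product, fell by 3.70, while Ptges2 (0.02, adjusted p = 0.901) and Ptges3 (0.65, adjusted p = 0.0678) did not pass. The prostaglandin D synthase Hpgds rose by 1.55 and the thromboxane synthase Tbxas1 by 0.96.

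Of the lipoxygenase and leukotriene genes 6 of 16 rose and 4 fell (median -0.00). Alox15 read 9.89, 9.87, 10.69 and 10.56 in TM+ DCs and 7.57, 7.53, 6.96 and 7.34 in TM- DCs. It was higher in every TM+ array (difference 2.90, SE 0.22, adjusted p = 2.86e-05). Alox5, which starts leukotriene synthesis, rose by 1.57 and the leukotriene receptor Cysltr1 by 1.74, and Cysltr2 (-1.56) and Alox12 (-1.35) fell.

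Adhesion and shape genes went both ways. Integrin subunits gave 6 rises and 7 falls among 26 (median -0.09, 3 rises without TM+ 4-2), with Itgae higher and Itgb8, Itgb3 (-1.75) and Itga4 (-1.65) lower. The CD11b gene Itgam had 0.22 (adjusted p = 0.041) and was not called without any array other than TM- 3-1. Adducins and actin genes gave 9 rises and 3 falls among 28 (median 0.12). Rises were 32.1% of the list, against 15.2% of all genes, and falls 10.7%, against 10.2%. The adducin Add3, which caps actin at the membrane skeleton, rose by 1.58, Diaph3 by 1.55 and the crosslinker Flna by 0.78, Rdx fell by 0.74, and Add1 (0.12) and Add2 (-0.18) did not pass.

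Among myeloid transcription factors 13 of 46 rose and 13 fell (median 0.16). Id1 (1.56) and the granulocyte factor Cebpe (1.53) rose, and Stat5a (-1.66), which signals for GM-CSF, and Nr4a2 (-1.39) fell. Receptors of colony-stimulating factors and their feedback genes gave 2 rises and 7 falls among 15 (median -0.05, 4 falls when any single array of experiment 4 was left out), with the feedback inhibitor Socs3 (-1.50) and Csf3r (-0.87) lower. Pim1 had -0.79 and was not called without any single array of experiment 4.

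The experiments differed in the size of the difference for 6064 genes, or 30.4% (interaction of sorting and experiment, limma on the same 8 arrays). Of these, 2999 had the same sign and the larger value in experiment 4, 384 the same sign and the larger value in experiment 3, and 2681 opposite signs. The median absolute difference was 0.121 in experiment 3 and 0.303 in experiment 4, and differences in the experiments correlated at 0.64 across genes, which are not independent replicates. The interaction was more positive in experiment 4 for 3376 and more negative for 2688 genes, a split that turned to 2339 and 4891 when arrays were centred on the 75th percentile. Without TM- 3-2 the count of 6064 became 9421. The sources used here do not say what differed between the experiments.

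The smallest p-values of this test belong to genes that moved in experiment 4 or in opposite directions. Gpr84, a receptor for medium-chain fatty acids, read 8.89, 8.96, 11.61 and 11.52 in TM+ DCs and 10.69, 10.62, 9.51 and 9.75 in TM- DCs. TM+ DCs were lower in experiment 3 (-1.72) and higher in experiment 4 (1.94, adjusted p of the interaction = 3.7e-07). Gadd45g, a stress gene, read 8.53, 8.55, 7.65 and 7.63 against 8.07, 8.02, 10.76 and 10.87. Its difference was 0.50 in experiment 3 and -3.17 in experiment 4 (adjusted p of the interaction = 1.5e-07). The others were Fnip2 (0.42 and -2.53), a folliculin partner, Selenbp1 (0.14 and -2.70), Ypel2 (0.01 and -2.75) and Eno2 (-0.47 and -3.64). Cxcr4, the receptor that holds cells in the marrow, read 10.10, 10.19, 8.87 and 8.80 against 9.55, 9.44, 9.78 and 9.88, higher in TM+ DCs of experiment 3 and lower in those of experiment 4 (adjusted p = 1.1e-05).

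**Figure D3:**
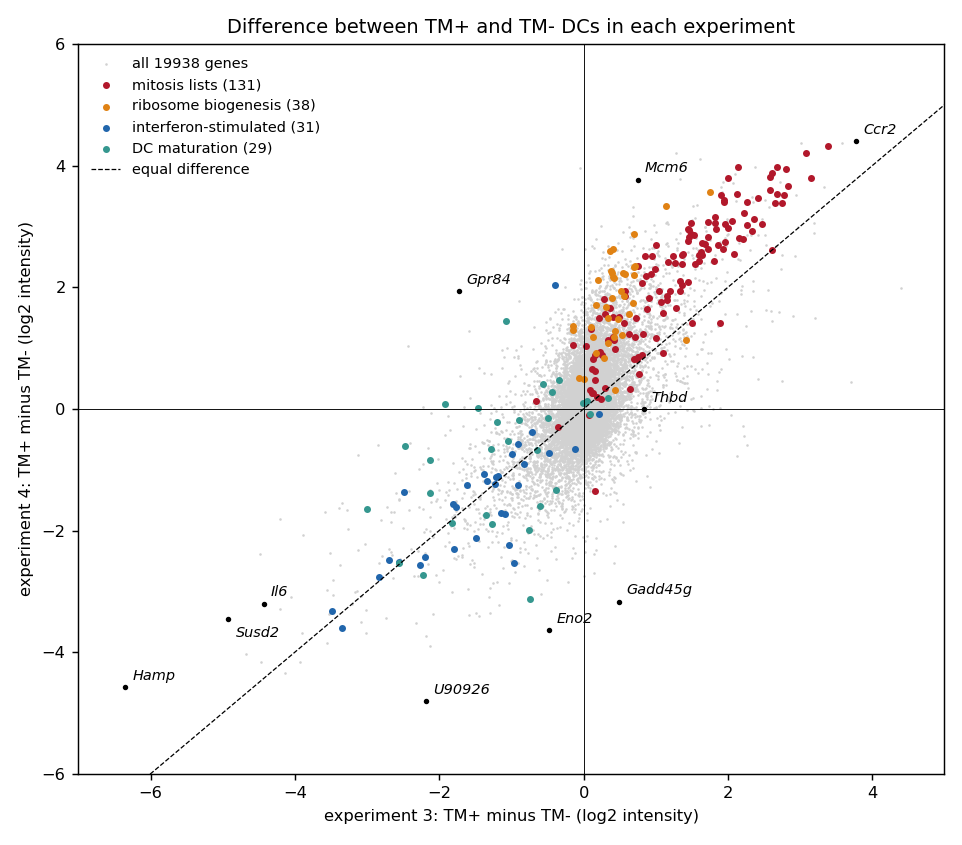
Difference between TM+ and TM- DCs (log2 intensity) in experiment 3 (horizontal axis) against experiment 4 (vertical axis), with 1 point per gene, colours for the lists in the key and a dashed line where both are equal. Most mitosis genes lie above the dashed line, with medians of 1.33 and 2.38, interferon-stimulated genes lie around it, and Gpr84 and Gadd45g have opposite signs.

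The same sort was made in sTM-treated cultures of experiments 3 and 4, in which human sTM was added at 200 nM from day 4, with 4 arrays of each fraction. Differences in treated and untreated cultures correlated at 0.90 across genes. Of the 5064 genes called in untreated cultures 4910 had the same sign in treated cultures, and 4018 (79.3%) had the smaller absolute difference there, with a median of 0.512 against 0.653. These genes were chosen on the untreated arrays, so a smaller value in the other arrays is a description and not a test. The test of the interaction with treatment called 2 of all genes, or 0.01%, and 996 passed an unadjusted p below 0.05. Sorting differences that vary between the experiments count as spread in this fit. Within experiment 3 alone the test called 378 genes, and within experiment 4 alone 1377. The 2 calls therefore do not show that sTM left the difference between the fractions unchanged.

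The 2 genes called over all 16 arrays were Gcsam, an adaptor of lymphocyte signalling, and Cpa3, a protease of mast cells. Gcsam read 6.87, 6.87, 6.86 and 6.94 in TM+ DCs and 5.66, 5.63, 5.51 and 5.63 in TM- DCs without sTM, and 5.70, 5.81, 6.23 and 5.85 against 5.85, 5.98, 5.69 and 5.68 with it. Only the untreated TM+ arrays were high, and the difference was 1.28 without and 0.10 with sTM (adjusted p of the interaction = 0.021). For Cpa3 the difference was 0.73 without and -0.42 with sTM (adjusted p = 0.0217). Of the 16 arrays left out in turn, 6 ended the call of Gcsam and 10 that of Cpa3, with adjusted p-values up to 0.0711 and 0.0885. Leaving out any untreated array of experiment 4 ended both calls. A replicate block gave adjusted p-values of 0.147 and 0.0893. Quantile normalization ended the call of Gcsam (-1.06, adjusted p = 0.072), and the fit on 20 sorted arrays that of Cpa3 (-0.69, adjusted p = 0.901). Srebf2 (0.63 without and -0.29 with sTM) and Thy1 (0.08 and -0.65) came next and did not pass (adjusted p = 0.06 and 0.077).

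Some lists were closer together in treated cultures by their medians. Cholesterol and fatty acid synthesis had a median of 0.79 without and 0.19 with sTM, and 16 of its 29 genes had an unadjusted p below 0.05 for the interaction, none of them past the adjustment. Fdps lay between 9.44 and 10.18 in TM+ DCs and between 7.92 and 8.89 in TM- DCs without sTM, and read 8.62, 8.46, 9.33 and 9.15 against 8.26, 8.75, 8.57 and 8.46 with it. Its TM+ arrays were lower with sTM, and the fractions of experiment 3 then overlapped. Neutrophil markers had medians of 0.67 and 0.21, with 13 of 23 at an unadjusted p below 0.05. For comparison, the mitosis lists had 1.73 and 1.57, with 5 of 131, and the interferon-stimulated genes -1.43 and -1.19, with none of 31. Over all 19938 genes, 996 had an unadjusted p below 0.05 for this interaction. The lists named here were picked from all the gene lists, and such counts are not given for the rest.

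**Figure D4:**
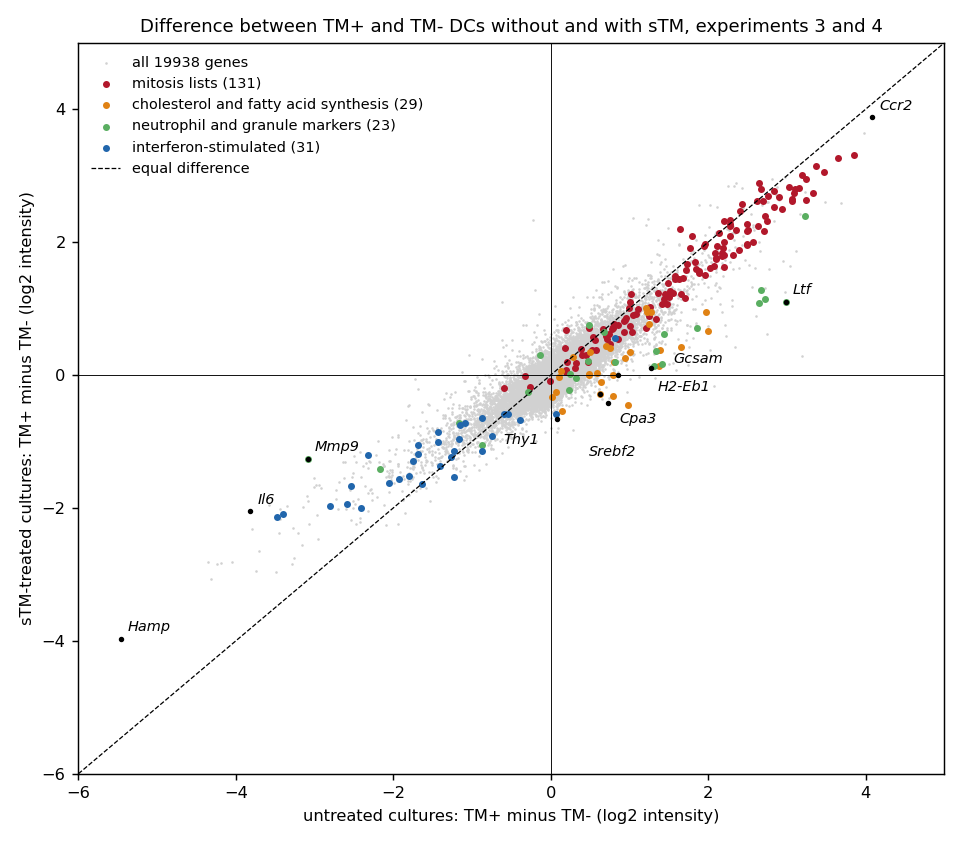
Difference between TM+ and TM- DCs (log2 intensity) in untreated cultures (horizontal axis) against sTM-treated cultures (vertical axis) of experiments 3 and 4, with 1 point per gene, colours for the lists in the key and a dashed line where both are equal. Gcsam, Cpa3 and Srebf2 and most genes of cholesterol and fatty acid synthesis lie below the dashed line.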

How the data were processed

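RNA of the sorted DCs was hybridized to Affymetrix Mouse Gene 1.0 ST arrays. The authors corrected background, normalized and summarized the probes with RMA in Affymetrix Power Tools 1.12.0 with NetAffx release 31, and deposited linear intensities, 1 per transcript cluster and array. Joint normalization of the 36 arrays is not stated in the methods, and values near the array background were not separated, which compresses differences of dim genes. These intensities were converted to log2 and neither filtered nor scaled again.

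Of 35556 transcript clusters, 21789 carry 1 symbol in the platform annotation, 1621 several and 12146 none. For each of 19938 symbols the cluster with the highest mean over all arrays was tested (999 symbols had several), and 19856 symbols had a RefSeq entry. Only 6 of the 211 named genes had another cluster, and none of those clusters was called in the opposite direction. Of 46 genes named by the study, 3 were not analysed here.

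The fit used limma 3.58.1 in R 4.3.3 (statmod 1.5.0) on the 8 arrays, with sorting and experiment as factors. The study treats experiment as a random effect, which was an alternative. Interactions of sorting with experiment (8 arrays) and with treatment (16 sorted arrays of experiments 3 and 4) were fitted likewise. P-values were adjusted by the Benjamini-Hochberg method over all genes. In simulated data, planted log2 effects of 0.5 were called for sorting in 52 of 67 genes. For the interactions with experiment and with treatment these were 7 and 18 of 67. Effects of 1 were called in 67, 50 and 64 of 67. The simulated noise was independent between arrays, and genes without a planted effect did not differ between fractions, unlike these data. The number of arrays, 2 per fraction and experiment, limits the precision. Figures and counts were made in Python 3.11.15 with numpy 2.4.6, pandas 2.3.3 and matplotlib 3.10.9.

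The genes named are Thbd and the 12 largest rises and falls that do not overlap in either experiment. Added to them are up to 4 members of each list with the largest called change and the genes the study names. The 6 and 4 genes with the smallest interaction p complete the set. Genes marked as named after their values were seen lie outside this rule. The members and the 44 lists, with 1073 memberships measured and 101 not, were chosen with earlier results of these data known. Alternatives were a filter on genes under the 25th percentile, every transcript cluster, centring on the 75th percentile, quantile normalization, trend and robust moderation, array weights, other experiment terms, a replicate block, 16 or 20 sorted arrays, each experiment alone, and leaving out each array. Promoters (32851 of 27025 genes) came from the RefSeq table on GRCm38.p6. Samples with the same number were not shown to be paired.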

Additional observations from a re-analysis of the deposited data

Results flagged for a closer look

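In 14 of 422 groups of 4 arrays of the named genes, 1 array lay so far from the others that its gap to the nearest, divided by the range of the group, exceeded Dixon's critical value. Chance alone gives about 1 in 20 such groups, and each group spans both experiments. TM+ 4-2 was the high array for Ptgs2 (0.871), U90926 (0.915) and Cxcl1 (0.913). TM- 4-1 was the array apart for Cdkn2c (0.933), Pole (0.859), Mcm5 (0.924), Neil3 (0.868), Fasn (0.906), Ly96 (0.854) and Myb (0.855). It was the low array for Pole, Mcm5, Neil3, Fasn and Myb and the high array for Cdkn2c and Ly96. TM- 4-2 was the high array for H1f5 (0.830) and H2-DMa (0.912), TM- 3-1 the high array for Cd200 (0.911) and TM- 3-2 the low array for Tbxas1 (0.938). Every one of these 14 genes was called without the array in question as well.

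The TM+ minus TM- difference was smaller with sTM than without by 1.18 for Gcsam and by 1.15 for Cpa3 (changes of -1.18 and -1.15 on the log2 scale), the only genes past the adjusted test of the interaction with treatment over all 16 arrays. The treated arrays of both genes were not used in the comparison of untreated fractions.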

How the results depend on the processing

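Counts of rises and falls (3034 and 2030) stayed within 1.5 times under the filter, all clusters, both scalings, trend and robust moderation, a random experiment term (2464 and 1638) and fits on 16 or 20 sorted arrays. Array weights, whose estimation gave a convergence warning in some fits, gave 3123 falls, and no experiment term gave 1930 rises and 1303 falls. Experiment 3 alone gave 1986 rises, and experiment 4 alone 4939 rises and 6557 falls. Leaving out each array gave 1957 to 3711 rises and 1371 to 3488 falls.

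Deviations of arrays with the same number correlated at -0.25 in experiment 3 and 0.12 in experiment 4, so the numbers were not shown to pair the samples. With a replicate block, 1701 genes were higher and 1219 lower, 5497 differed between experiments and 1, neither Gcsam nor Cpa3, differed with treatment, and 19 ribosome biogenesis genes were higher.

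The count of genes whose difference differed between experiments was 4077 to 9421 without each array. That for treatment, 2, was 0 over all transcript clusters, 4 with centring on the 75th percentile, 60 with array weights (with the same warning), 378 in experiment 3 alone, 1377 in experiment 4 alone and 0 to 5 without each array.

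Of the 211 named genes 189 were called, and 160 of these were called under every alternative and 176 without each array. In experiment 3 alone the sign turned with a call there for Cxcr4 (0.65), Gadd45g (0.50), Gpr84 (-1.72) and Fnip2 (0.42), and in experiment 4 alone for Cd86 (0.29). It turned without a call there for 7 other named genes in experiment 3 and 2 in experiment 4. None of these passed the test in both experiments together. The medians of 7 lists changed sign under a scaling: the Toll-like receptors, Fc receptors, lipoxygenases, adducins and actin, and the markers of conventional DCs, of eosinophils and of T and NK cells, with a largest size of 0.14. Some of these fits hold fewer arrays, and the causes of these changes were not tested.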
